A study of Mus musculus with 4 samples.

Results

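CpG shores are the flanks of CpG-dense sequence, and here they are the CpGs that lie 1 to 2000 bp outside the nearest end of a CpG-dense run. A CpG was called dense where at least 12 CpGs listed in any library, itself included, lay within 100 bp on either side. A run was at least 10 dense CpGs on an autosome with neighbours at most 200 bp apart. A shore CpG had fewer than 12 CpGs by the same count and at least 10 reads in all 4 libraries. The rule names no methylation level, but level could enter through the coverage minimum, since read depth went with level, as given below. CpGs left out because their lowest coverage was 5 to 9 reads averaged 32.9% in the control library. All shore CpGs kept averaged 24.4% there. The rule gave 105941 shore CpGs of 1045368 CpGs with that coverage, and 214677 before the coverage minimum. For comparison, 391309 dense CpGs lay inside runs and 489479 CpGs that were not dense lay over 2000 bp from any run, called distant CpGs below.

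The assay was reduced representation bisulfite sequencing (RRBS) of genomic DNA, which reads the short fragments that the enzyme MspI leaves and so covers mainly CpG-rich sequence. All cells were secondary, inducible mouse embryonic fibroblasts (MEFs) of a 129/SvJ x C57/B6 hybrid, fibroblasts in which doxycycline switches on reprogramming factors. There were 4 libraries, 1 per group: uninduced MEFs (control), and MEFs held in doxycycline for 96 hours that had divided on average 0 times (0-division), 1 time (1-division) or more than 3 times (>3-division; the longer label reads 3 or more). The labels name media with 10%, 15% and 0.5% serum, the last for serum starvation, without saying which cohort had which, so division and medium cannot be told apart. With 1 library per group nothing below has a replicate check, p-values compare 2 libraries and not the conditions, and 95% Wilson intervals cover counting error only.

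In mammals most CpGs are methylated, while CpG islands, dense runs that often hold a promoter, mostly are not. The shore is the transition between these states, where methylation is known to differ between tissues and to shift in reprogrammed cells. The maintenance enzyme copies methylation onto new DNA strands after replication, so a mark that is not copied is diluted as cells divide. Some islands are methylated on 1 parental allele, as at imprinted genes, and CpG-dense repeats are methylated in most cells.

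The 14911 runs had a median length of 353 bp (39 to 3303 bp) and a median of 33 dense CpGs. Shore CpGs flanked 13964 of them on 22659 run sides, with a median of 4 and at most 62 per side. Coverage by RRBS fell off with distance: 60.8% of shore CpGs lay in the first 250 bp and 75.1% in the first 500 bp. Reads summed over CpGs lay between 84606824 and 94775128 per library. The >3-division library stood apart from the other 3 in the makeup of its reads: 26.0% of them were methylated, while the shares were 44.4%, 44.6% and 43.5% in the control, 0-division and 1-division libraries.

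To show what a shore looks like at a promoter, 6 promoter stretches follow, each with 250 bases before and 30 from the transcription start on the gene's strand, 5′ to 3′, from RefSeq on GRCm38.p6. CpGs that the rule made shore CpGs are in capitals. The stretches were chosen after their values were seen: 5 are among the largest falls in the >3-division library over windows with at least 3 shore CpGs, and Adamts17 is the window with the most shore CpGs. They are Mcts2 at chr2:152686898-152687177 (plus strand), Cyp2r1 at chr7:114562943-114563222 (minus strand), Hymai at chr10:13090595-13090874 (plus strand), which shares these CpGs with Plagl1, Gnas at chr2:174284070-174284349 (plus strand), Gm10589 at chr7:116333919-116334198 (plus strand) and Adamts17 at chr7:66839485-66839764 (plus strand).
Mcts2: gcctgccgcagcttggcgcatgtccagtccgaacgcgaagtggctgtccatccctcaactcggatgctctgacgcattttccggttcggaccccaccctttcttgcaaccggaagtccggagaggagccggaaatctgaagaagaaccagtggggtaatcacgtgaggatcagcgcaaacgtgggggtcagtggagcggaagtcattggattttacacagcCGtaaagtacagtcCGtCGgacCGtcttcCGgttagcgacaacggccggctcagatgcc
Cyp2r1: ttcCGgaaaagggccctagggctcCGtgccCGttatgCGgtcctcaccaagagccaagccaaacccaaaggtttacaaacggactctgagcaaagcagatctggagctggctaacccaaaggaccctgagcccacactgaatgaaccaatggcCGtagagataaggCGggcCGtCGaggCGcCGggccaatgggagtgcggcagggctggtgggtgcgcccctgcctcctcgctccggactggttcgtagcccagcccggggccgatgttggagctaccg
Hymai: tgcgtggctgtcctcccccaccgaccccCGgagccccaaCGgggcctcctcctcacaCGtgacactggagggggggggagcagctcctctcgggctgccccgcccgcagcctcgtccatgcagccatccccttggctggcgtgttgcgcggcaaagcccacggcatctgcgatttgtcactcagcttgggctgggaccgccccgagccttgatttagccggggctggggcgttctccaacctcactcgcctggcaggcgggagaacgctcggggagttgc
Gnas: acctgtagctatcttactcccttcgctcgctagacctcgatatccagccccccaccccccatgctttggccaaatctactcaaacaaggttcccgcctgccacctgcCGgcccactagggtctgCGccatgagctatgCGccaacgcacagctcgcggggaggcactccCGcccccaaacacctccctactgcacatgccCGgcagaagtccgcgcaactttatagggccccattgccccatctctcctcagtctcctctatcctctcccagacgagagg
Gm10589: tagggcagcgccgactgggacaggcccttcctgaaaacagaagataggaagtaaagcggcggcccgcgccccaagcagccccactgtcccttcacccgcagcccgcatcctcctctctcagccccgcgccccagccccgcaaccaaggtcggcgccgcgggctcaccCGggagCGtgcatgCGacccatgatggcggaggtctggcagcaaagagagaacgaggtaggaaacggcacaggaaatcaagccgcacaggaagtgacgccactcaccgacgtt
Adamts17: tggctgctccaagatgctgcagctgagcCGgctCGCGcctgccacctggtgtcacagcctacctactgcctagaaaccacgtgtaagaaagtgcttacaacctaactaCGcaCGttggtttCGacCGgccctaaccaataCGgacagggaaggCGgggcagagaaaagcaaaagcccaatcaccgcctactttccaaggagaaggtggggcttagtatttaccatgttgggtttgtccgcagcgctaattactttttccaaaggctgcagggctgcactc

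Promoter windows of RefSeq could be placed on the deposited CpGs by the spacing of their CpGs for 8930 of 32851 windows, and 1596 windows held at least 3 shore CpGs, in 1492 different sets. Promoter shores were nearly free of methylation: 1438 of the 1492 sets were under 20% in control, 47 between 20% and 80%, and 7 at 80% or more. The median level of the sets was 0.404% in the >3-division library and 0.603% in control. A CpG was called changed between 2 libraries at an adjusted p below 0.05 (Fisher's exact test, all tested CpGs) and 20 points or more; between the >3-division and control libraries 3.05% of all tested CpGs were called lower and 0.0865% higher. In 17 of the 1492 sets at least 1 CpG was called lower in that comparison, and in 4 sets at least 1 was called higher. These are counts of sets and not on the scale of the shares of single CpGs. Sets under 20% in control also left little room for a fall of 20 points. The Adamts17 window, named for a secreted metalloprotease, is of the common kind: its 13 shore CpGs, 9 of them in the stretch printed, were 0.142% methylated in control, then 1.35%, 1.16% and 0.575% at 0, 1 and >3 divisions.

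The windows printed first are of the rare kind. Mcts2, an imprinted retrogene expressed in mouse from the paternal allele, had 5 shore CpGs 60 to 89 bp from a run of 19 dense CpGs. Their pooled level was 65.7% in control, then 58.7%, 59.0% and 16.4% at 0, 1 and >3 divisions (13.6 to 19.5%, 593 reads), and all 5 were called lower in the last than in control. The run beside them was at 17.0% in the >3-division library and 42.3% in control, so run and shore were both lower. At Cyp2r1, which encodes a vitamin D 25-hydroxylase, 10 shore CpGs had a pooled level of 47.2% in control. It was 37.0%, 40.3% and 16.1% at 0, 1 and >3 divisions, with 9 of 10 CpGs called lower in the last than in control. The run at Cyp2r1 was at 25.1% in the >3-division library and 28.5% in control, a smaller gap than in the shore.

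The shore CpGs of Hymai and Plagl1, an imprinted noncoding RNA and an imprinted zinc finger gene, were at 59.9% in control, then 59.1%, 52.1% and 29.3% at 0, 1 and >3 divisions. The run beside them was at 25.3% in the >3-division library and 39.8% in control. The Gm10589 window had 3 shore CpGs within 27 bp of a run that was at 0.168% in the >3-division library and 0.489% in control. Its shore CpGs were at 57.9% in control, then 50.2%, 38.1% and 19.5% at 0, 1 and >3 divisions. Whether reads of copies elsewhere in the genome are counted in this window was not tested. At Gnas, an imprinted locus that encodes a stimulatory G protein subunit, 5 shore CpGs 457 to 550 bp from the run were at 27.4% in control, then 27.2%, 56.7% and 6.45% at 0, 1 and >3 divisions. The run at Gnas was at 14.6% in the >3-division library and 45.9% in control. No single CpG of that window was called between the >3-division and control libraries, and 92 to 180 reads per library lie behind its levels. The largest rise among the windows was at Entpd2, an ectonucleotidase gene, with 28.9% in the >3-division and 10.8% in the control library by pooled reads, but 10.9% and 6.77% with equal weight per CpG.

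Methylation climbed with distance from the run in every library. In control the mean level was 5.71% in runs, 17.3% at 1 to 250 bp, 21.7% at 251 to 500 bp, 30.7% at 501 to 750 bp and 37.3% at 751 to 1000 bp. It was then 49.9%, 52.8%, 57.9% and 57.9% in the 4 steps out to 2000 bp, against 74.1% at distant CpGs. The makeup of the steps changed with it: CpGs under 20% made up 78.1% of the first step and 24.5% of the last in control, while those at 80% or more made up 11.9% and 42.2%. CpGs between 20% and 80% made up 9.94% of the first step and between 28.2% and 34.1% of every step past 500 bp. The SD over CpGs of a step was between 31.0 and 37.3 points in control, so single shore CpGs varied far more than the step means.

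**Figure D1:**
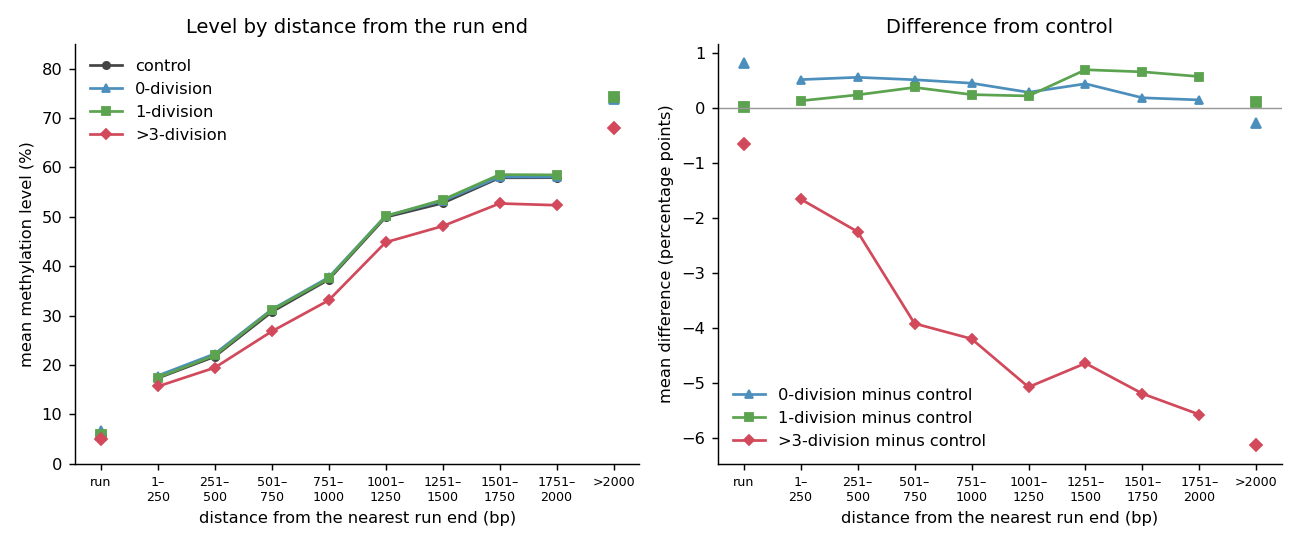
Left, mean methylation level (%) of CpGs in runs, in each 250 bp step of the shores and over 2000 bp away, for each library; right, the mean difference from control in percentage points. The >3-division curve lies below the other 3 at every distance, 1.66 points below control in the first step and 5.58 points in the last.

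In the >3-division library shores were lower than in control at every step, by less near the run and more in the outer steps. The mean differences were -1.66, -2.26, -3.93, -4.20, -5.08, -4.65, -5.20 and -5.58 points from the first step to the eighth, beside -0.67 points in runs and -6.13 points at distant CpGs. Over all shore CpGs the mean level was 21.9% in the >3-division and 24.4% in the control library, a difference of -2.47 points, and the difference from the 0-division library was -2.95 points. In proportion to the control level the fall of the means was nearly even, between 8.81% and 12.8% in the 8 steps, 11.7% in runs and 8.26% at distant CpGs. These means mix CpGs of unlike levels, and the proportional fall was not even between levels. Over all shore CpGs the proportional change was -18.8% at those under 20% in the 0-division library. It was -17.2% at those of 20 to 80% and -4.77% at those of 80% or more. The proportional fall was not even beside unmethylated runs either: for the 81848 shore CpGs of runs under 10%, the proportional change was -18.1% in the first step, -14.8% at 501 to 750 bp and -10.3% in the last, next to -24.6% in the runs. The share of CpGs at 80% or more was 35.9% in the >3-division and 42.2% in the control library at 1751 to 2000 bp, and 9.89% and 11.9% at 1 to 250 bp.

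The other doxycycline libraries stayed within 1 point of control at every step. The 0-division library was higher than control by 0.51 points in the first step and 0.14 points in the last, and by 0.81 points in runs. The 1-division library was higher by 0.12 points in the first step and 0.56 points in the last, with a peak of 0.69 points at 1251 to 1500 bp. Over all shore CpGs these differences were 0.482 and 0.208 points. With reads pooled over CpGs they turned round, to -0.142 and -0.530 points, and the >3-division library was then at -10.5 points. The share of shore CpGs with no methylated read was 32.4% in control, then 27.4%, 33.6% and 32.5% at 0, 1 and >3 divisions.

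Read depth moved with the level in the >3-division library. At shore CpGs under 20% in the 0-division library the median depth was 102 reads in the >3-division and 66 reads in the control library. At shore CpGs of 80% or more it was 45 reads in the >3-division and 71 reads in the control library. The part of this imbalance in the level differences was not tested; weighting CpGs by the reads of the control library gave -2.87 points in place of -2.47.

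Part of the trend with distance went with the level that CpGs had, taken from the 0-division library, which is outside the comparison of the >3-division library with control. Shore CpGs under 20% differed by -0.42 to -1.59 points over the steps, those of 20 to 80% by -7.04 to -10.0 points and those of 80% or more by -3.88 to -4.93 points. Run CpGs of the same classes differed by -0.29, -6.22 and -4.28 points, and distant CpGs by -1.56, -9.45 and -5.07 points. Between the first step and the last, the difference changed by -3.92 points over all shore CpGs, and by -0.684, -2.21 and -0.293 points within the classes, the most in the middle class. The class with the smallest difference, under 20% in the 0-division library, held 66.9% of shore CpGs.

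The difference was also graded by CpG density within the shore. Shore CpGs with 1 to 4 CpGs within 100 bp differed by -2.54 points in the first step and -7.11 points in the last, against -7.45 points at distant CpGs of that density. With 5 to 8 CpGs the values were -1.64 and -4.21 points, against -4.57 points at distant CpGs. With 9 to 11 CpGs they were -1.55 and -2.91 points, against -3.46 points. Among shore CpGs of 80% or more, where the starting level was nearly equal (89.2 to 89.6% in control), the difference was -5.85 points at 1 to 4 CpGs, -4.28 points at 5 to 8 and -3.19 points at 9 to 11. At distant CpGs of that level it was -5.98, -3.88 and -3.64 points, so the grade by density was found outside the shores too. Shore CpGs of 20 to 80%, at 46.7 to 48.9% in control, differed by -10.2, -7.23 and -7.24 points in the same order of densities. In that class the values at 5 to 8 and at 9 to 11 CpGs were nearly equal.

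**Figure D2:**
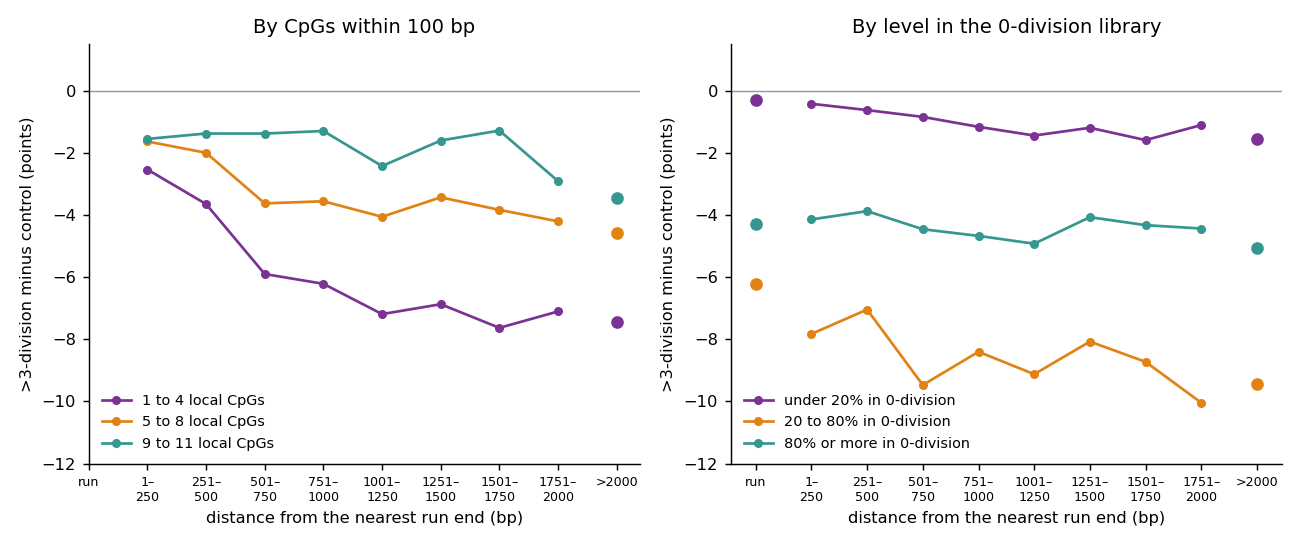
Mean >3-division minus control difference (percentage points) by distance step, left for shore CpGs split by the number of CpGs within 100 bp, right split by their level in the 0-division library, with run and distant CpGs as single points at the ends. Lines for 1 to 4 local CpGs go down to between -6.87 and -7.63 points past 1000 bp, while by level the line for CpGs of 80% or more stays between -3.88 and -4.93 points, and the line for 20 to 80% between -7.04 and -10.0 points.

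The shape of a shore went with the state of its run. Runs under 10% in the 0-division library (12093 runs) had shores that started at 2.69% in the >3-division and 3.29% in the control library and reached 50.7% in the >3-division and 56.5% in the control library at 1751 to 2000 bp. Their differences were -0.59 points in the first step and -5.82 points in the last. Runs of 10 to 50% (1014 runs) had shores at 24.6% in the >3-division and 29.3% in the control library in the first step, and between 38.5% and 42.3% in the >3-division and between 45.0% and 50.4% in the control library past 500 bp. Runs of 50% or more (1644 runs) had no rise at all: shore steps lay between 71.9% and 81.7% in the >3-division and between 78.0% and 85.3% in the control library, with differences of -3.47 to -8.39 points. The -8.39 points fell at 501 to 750 bp and became -5.16 points without 1 set of sides described below.

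**Figure D3:**
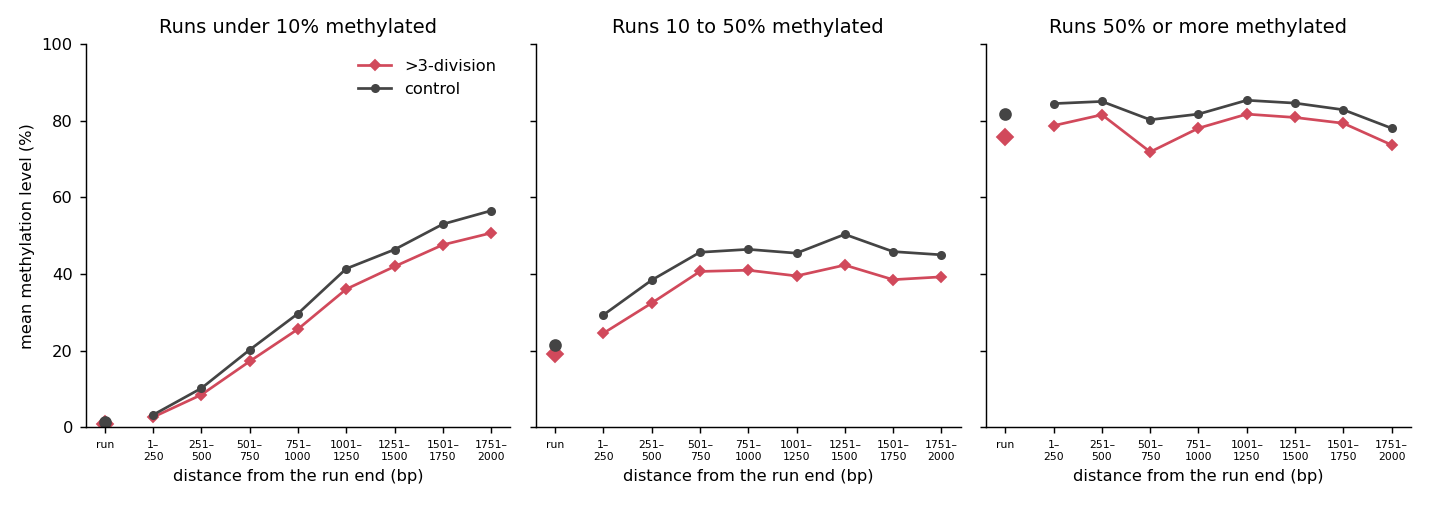
Mean methylation level (%) by distance step in the >3-division and control libraries for shores of runs under 10%, of 10 to 50% and of 50% or more in the 0-division library; the single points at the left are the run CpGs. Shores of runs under 10% climb to 50.7% in the >3-division and 56.5% in the control library, while shores of runs of 50% or more are high from the first step.

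Shores of long and short unmethylated runs were closest near the run. Among runs under 10%, shores of runs under 250 bp were at 52.0% in the >3-division and 55.9% in the control library in the last step, those of 250 to under 500 bp at 52.0% and 58.9%, and those of 500 bp or more at 48.7% and 55.0%. In the first step all 3 lay between 2.45% and 2.95% in the >3-division and between 2.99% and 3.57% in the control library. At 1501 to 1750 bp they were farther apart, at 43.6%, 52.9% and 47.2% in the >3-division and 48.0%, 58.9% and 53.1% in the control library from the shortest runs to the longest. The 2 sides of runs as they lie on the chromosome were both at 17.3% in control in the first step. In the last step the side before the run was at 50.5% in the >3-division and 55.8% in the control library, and the side after it at 54.1% and 59.9%. Relative to transcription the sides were also apart far from the run: for runs with a matched RefSeq start on 1 strand only (4872 runs), the upstream shore was at 37.3% in the >3-division and 41.5% in the control library at 1001 to 1250 bp, and the downstream shore at 42.5% and 49.4%. At 1251 to 1500 bp the upstream shore was at 38.4% in the >3-division and 43.7% in the control library, and the downstream shore at 52.9% and 56.8%. In the first step both were low, at 2.98% and 3.61% upstream and 2.83% and 3.48% downstream, and at 251 to 500 bp the upstream shore was the higher one, at 10.4% and 12.6% against 7.83% and 9.27%. The steps from 1001 to 1500 bp rest on 395 to 611 CpGs of 173 to 260 run sides, and the gap between the sides of a gene was not tested.

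The place where methylation began was compared on the same run sides. On the 18183 sides of runs under 10%, a shore CpG of 50% or more was found on 3163 sides in control, and on 3200, 3221 and 2812 sides at 0, 1 and >3 divisions. The nearest such CpG lay at a median of 1006, 997, 1002 and 1045 bp in that order of libraries. Among 2683 sides that had one in both the >3-division and control libraries, it was the same CpG on 2203, farther out in the >3-division library on 358 and nearer on 122. In the 0-division library it was farther than in control on 130 sides and nearer on 189, and in the 1-division library farther on 130 and nearer on 180. On 921 sides with at least 3 shore CpGs both within 500 bp and past 1000 bp, the near part was at 16.5% in the >3-division and 21.5% in the control library, and the far part at 48.6% and 53.1%. These are differences of -5.02 points near and -4.50 points far. The near difference rested on 49 sides of 1 set of distances, described next: on the other 872 sides it was -2.44 points, and the far difference -4.70 points. A sharp transition, under 20% near and 80% or more far, was seen on 166 sides in the >3-division and 164 in the control library. The near-equal totals were made up differently: 117 such sides in the >3-division and 160 in the control library had runs under 10%, while 43 and 2 had runs of 50% or more.

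Most of the sharp transitions beside methylated runs lay on sides that looked alike. Sides with equal distances to their first 3 shore CpGs were grouped as possible copies of 1 sequence, without the sequence itself, and 28 such sets of distances were shared by at least 10 of 15209 sides. Without 49 sides of the first set below, sharp transitions at runs of 50% or more numbered 6 in the >3-division and 0 in the control library. The set with shore CpGs at 12, 18 and 26 bp from the run occurred on 50 sides of 17 autosomes, beside short runs with a median length of 139 bp. Its first 3 CpGs averaged 64.8% ± 15.6 in control, then 65.7% ± 13.7, 72.3% ± 15.6 and 14.9% ± 6.29 at 0, 1 and >3 divisions (SD over 50 sides, which lie within 1 library each and are not replicates). The lowest, median and highest side were at 0, 15.9 and 25.6% in the >3-division and 0.457, 69.0 and 78.7% in the control library. All 50 sides were lower in the >3-division library, and 135 of their 150 CpGs, 90.0%, were called lower than in control, where 3.05% of all CpGs tested were. In control 3 of the 50 sides lay at or under the highest side of the >3-division library, and the other sides at 37.8% or more.

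**Figure D4:**
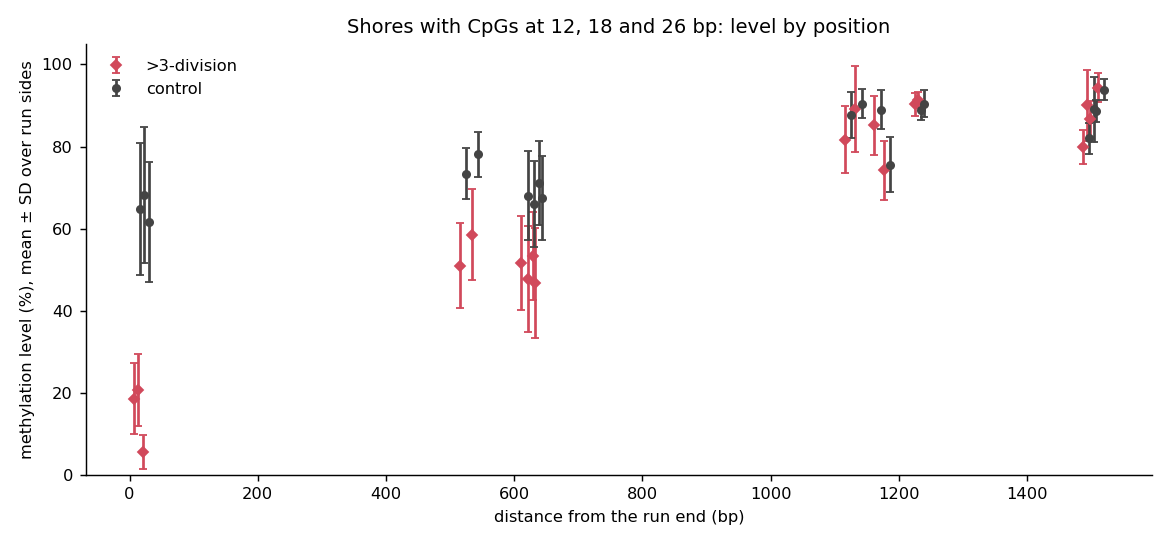
Methylation level (%, mean ± SD over run sides) at each recurring position of the shores with CpGs at 12, 18 and 26 bp, in the >3-division and control libraries; points of the 2 libraries are shifted by 5 bp to either side so that they can be told apart. The libraries lie far apart next to the run, less so at 520 to 638 bp, and together past 1121 bp.

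Within the shore, the loss on these sides was graded with distance, but not all sides could be followed outward. The first 3 CpGs rest on 50 sides, those at 520 to 638 bp on 40 and those at 1121 to 1515 bp on 33. CpGs at 520 to 638 bp were at 51.4% in the >3-division and 70.6% in the control library, with 58 of 232 called lower. CpGs at 1121 to 1515 bp were at 86.8% in the >3-division and 87.8% in the control library, with 0 of 260 called. The dense CpGs of the runs themselves were at 27.1% in the >3-division and 64.3% in the control library. Median depth at the first 3 CpGs was 33 reads in the >3-division and 71 reads in the control library. If the sides are near-identical copies, reads may be exchanged between them, so the value of a single side is uncertain.

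The other 27 sets of distances, on 563 sides, did not move like this. Their control levels were between 74.0% and 93.0%, their differences between -11.1 and 0.775 points, and 18 of 1689 first CpGs, 1.07%, were called lower in the >3-division library. Nearly all of them, 545 of 563 sides, flanked runs of 50% or more. The sets were formed from positions alone but were looked for after the levels had been seen, and the first set was singled out for its fall, so no test is attached to the contrast.

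**Figure D5:**
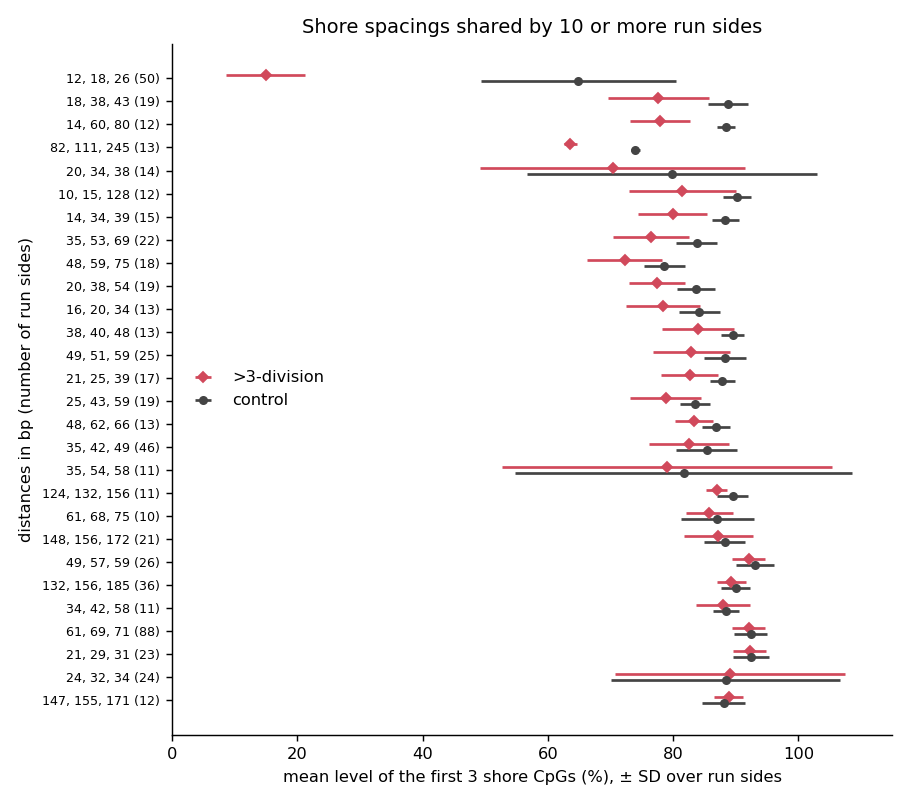
Mean level (%) of the first 3 shore CpGs in the >3-division and control libraries for each set of 3 distances shared by at least 10 run sides, with bars for ± SD over run sides, ordered by the difference. The set at 12, 18 and 26 bp stands alone at 14.9% in the >3-division and 64.8% in the control library, while the other sets differ by 11.1 points at most.

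A second kind of recurring shore stayed highly methylated in all 4 libraries. The 4 run sides with the most shore CpGs, chosen without levels, held 61 or 62 of them each and began at runs at chr10:27543475-27543648, chr2:80653406-80653579, chr3:6304355-6304658 and chr4:31864741-31864972 on mm9. In these 4 shores 54 to 59 CpGs had another shore CpG exactly 208 bp away, a spacing that tandem repeats also give. Median CpG levels of the 4 sides ran over 89.4 to 90.5% in control, then 87.9 to 89.4%, 88.6 to 89.8% and 87.2 to 89.5% at 0, 1 and >3 divisions. The highly methylated state held from the run to 2000 bp: on the chromosome 10 side, the reads within 500 bp gave 89.1% (87.2 to 90.8%) in the >3-division and 90.5% (88.7 to 92.1%) in the control library, and those past 1000 bp 85.7% (84.1 to 87.1%) and 89.4% (88.1 to 90.7%).

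The distance of 208 bp was the commonest between shore CpGs of runs of 50% or more, with 1600 pairs, against a median of 47 pairs per distance between 100 and 400 bp. Shore CpGs of these runs with such a partner were at 86.5% in the >3-division and 88.5% in the control library (2367 CpGs), a difference of -2.04 points. Those without one were at 77.2% and 83.1% (12899 CpGs), a difference of -5.92 points. The groups differed in makeup: CpGs between 20% and 80% in control made up 7.01% of those with a partner and 24.5% of those without. Leaving out the first set of distances above changed the difference over all shore CpGs of these runs from -5.32 to -4.71 points. The contrast by partner was not repeated without that set or at matched levels. The 208 bp pattern was noticed after the profiles had been drawn, and CpGs with a partner may share sequence and reads.

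The calls of single CpGs rest on two-sided tests of their methylated and unmethylated reads, with Benjamini-Hochberg adjusted p-values over all 1045368 CpGs. Between the >3-division and control libraries, 2693 shore CpGs (2.54%) were called lower, where 3.05% of all tested CpGs were, and 109 (0.103%) higher, where 0.0865% were. Of the 105941 shore CpGs, 10 were called lower than control and 5 higher in the 0-division library, beside 0.00631% and 0.0045% of all CpGs. In the 1-division library 0 were called lower and 1 higher, beside 0.00153% and 0.0022%. Against the 0-division library, the >3-division library had 2959 of the 105941 shore CpGs called lower and 99 higher, beside 3.22% and 0.0888% of all CpGs. Among shore CpGs of 20 to 80%, 11.6% were called lower than control in the >3-division library, against 10.1% of distant CpGs and 9.02% of run CpGs of that level. The mean differences did not rank this way. By level in the 0-division library they were -8.23 points in shores, -9.45 points at distant CpGs and -6.22 points in runs. Median depth in the >3-division library was 57, 43 and 47 reads in that order, so the shares of calls are not on an equal footing.

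Reads were also summed over clusters of at least 3 CpGs with neighbours at most 100 bp apart, tested in the same way over 99566 clusters and called from 10 points. Clusters made up of shore CpGs only numbered 9701, with a median of 4 CpGs. Between the >3-division and control libraries 796 of them (8.21%) were called lower, where 11% of all clusters were, and 62 (0.639%) higher, where 0.577% were. By step, from the run outward, 4.24, 7.63, 14.3, 11.4, 15.0, 14.6, 11.8 and 10.4% of shore clusters were called lower. Among clusters of 20 to 80% the share was 29.3% in shores, 27.5% at distant sites and 24.5% in runs. These shares also depend on the reads per cluster, which were not matched between the 3 places. Of the 9701 shore clusters, 38 were called lower than control and 59 higher in the 0-division library, beside 0.376% and 0.395% of all clusters. In the 1-division library 16 of them were called lower and 27 higher, beside 0.132% and 0.215% of all clusters. Against the 0-division library, the >3-division library had 863 of the 9701 shore clusters called lower and 62 higher, beside 11.2% and 0.614% of all clusters.

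The split into lower and higher calls changed when the shift of the whole library was taken as the starting point. When clusters were tested against the library-wide odds ratio of 0.715 between the >3-division and control libraries in place of 1, 327 shore clusters were called lower and 275 higher, and for CpGs, with an odds ratio of 0.666, 1097 lower and 500 higher. Against the 0-division library the same change gave 347 clusters lower and 324 higher, and 1176 CpGs lower and 544 higher.

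The shore clusters with the largest falls in the >3-division library, among those with at least 50 reads in each library, were led by 3 CpGs at chr14:19102834-19102860 (mm9), 296 bp from a run that holds the start of Rpl15, a gene of the large ribosomal subunit. Their level was 60.6% (48.6 to 71.5%) in control, then 27.7% (19.9 to 37.2%), 61.0% (49.9 to 71.2%) and 1.96% (0.347 to 10.3%) at 0, 1 and >3 divisions. The >3-division library differed from control by -58.6 points (adjusted p = 1.37e-10, Fisher's exact test), and the 0-division library by -32.9 points (adjusted p = 0.0024). The run beside it was at 0.319% in the >3-division and 5.79% in the control library. Mouse ribosomal protein genes are known for processed copies elsewhere in the genome, and whether reads of copies are counted here was not tested.

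At chr4:140696387-140696464, 6 CpGs 840 bp from an unmethylated run were at 84.7% in control, then 77.3%, 85.7% and 28.8% at 0, 1 and >3 divisions (adjusted p = 2.17e-24 against control, exact test). At chr17:12934456-12934473, 3 CpGs had 57.2% in control, then 46.2%, 33.6% and 2.27% at 0, 1 and >3 divisions, while their run stayed at 69.4% in the >3-division and 72.5% in the control library. That cluster was lower in the 1-division library too (adjusted p = 0.000378, exact test) and in the >3-division library at an adjusted p of 2.21e-40. At chr2:74538013-74538041, 2207 bp downstream of the start of the homeobox gene Hoxd9, 3 CpGs were at 91.7% in control, then 82.9%, 90.8% and 38.9% (27.0 to 52.2%) at 0, 1 and >3 divisions, beside a run at 25.7% in the >3-division and 22.9% in the control library. At chr2:144095216-144095228, 1086 bp downstream of the start of Snx5, a sorting nexin gene, the level was 74.3% in control and 24.1% in the >3-division library, beside a run that was at 0.137% in the >3-division and 0.305% in the control library. In 4 of these 5 places the 1-division library differed from control at no adjusted p under 0.05.

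Within 250 bp of the run, the largest falls were at chr6:90259517-90259535, chr7:80517586-80517783 and chr7:52887651-52887674. The chromosome 6 cluster was at 85.5% in control, then 74.1%, 82.0% and 36.6% at 0, 1 and >3 divisions, and its run at 23.4% in the >3-division and 65.7% in the control library. The chromosome 7 cluster at 80517586 was at 19.4% in the >3-division and 64.5% in the control library. In the one at 52887651 the shore was at 11.3% in the >3-division and 54.1% in the control library, while its run was at 32.2% and 33.4%, so here the shore was lower than its run in the >3-division library and higher in control.

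Rises in the >3-division library were fewer and smaller. The 5 largest were between 19.2 and 24.0 points, and none reached 80%. At chr5:111849720-111849813, 242 bp from the run, 6 CpGs were at 52.6% in control, then 58.0%, 65.6% and 76.6% at 0, 1 and >3 divisions (adjusted p = 0.00147 against control, exact test). At chr6:50406916-50406980 the level was 57.8% in the >3-division and 35.9% in the control library, beside a run at 0.233% and 0.582%. At chr6:144731512-144731571 it was 79.0% in the >3-division and 57.7% in the control library. At chr8:108138335-108138367, 7 CpGs were at 46.4% in control, then 55.3%, 65.6% and 67.4% at 0, 1 and >3 divisions, and the 1-division library already differed from control (adjusted p = 0.00387, exact test). At chr12:112684442-112684509 the level was 66.7% in the >3-division and 47.4% in the control library, and the difference was 19.2 points by summed reads and 14.0 points with equal weight per CpG.

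Differences of the 0-division library from control were rare and went both ways. The largest rises were at chr14:63874184-63874198, with 46.8% in the 0-division and 23.3% in the control library, at chr13:72096353-72096360, with 45.1% and 22.5%, and at chr12:14155920-14156026, with 45.0% and 22.8%. Averaged over its CpGs, the last of these rises was 12.9 points in place of 22.2. In the >3-division library the same clusters were at 28.4%, 27.8% and 23.9%, and none of these 3 differences from control passed the exact test (adjusted p = 0.642, 0.416 and 0.951). The largest falls were at the Rpl15 cluster, at chr16:94346981-94347012, with 23.8% in the 0-division and 47.6% in the control library (adjusted p = 0.0498, exact test), and at chr1:72758275-72758309. The chromosome 1 cluster lay 458 bp downstream of the start of Rpl37a, another ribosomal protein gene, and was at 27.2% in control, then 4.76%, 11.8% and 0.183% at 0, 1 and >3 divisions, lower than control in all 3 (adjusted p = 1.22e-17, 4.45e-05 and 1.70e-40 in that order, exact test).

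In the 1-division library the largest rise was at chr2:174109678-174109771, the 5 CpGs of the Gnas window printed above, with 56.7% in the 1-division and 27.4% in the control library (adjusted p = 0.000243, exact test). The same CpGs were lower than control in the >3-division library (adjusted p = 0.000689, exact test), at 6.45%. The next rises were at chr4:63218044-63218164, 1693 bp upstream of the start of Tmem268, with 70.4% in the 1-division and 43.2% in the control library, and at chr15:102808120-102808193, with 49.2% and 28.5%. The largest falls were at chr10:75322096-75322180, with 7.89% in the 1-division and 37.7% in the control library, at chr11:117126120-117126153, with 17.9% and 42.6%, and at chr7:13592473-13592480, with 56.5% and 80.4%. Averaged over its CpGs, the chromosome 10 fall was -19.2 points in place of -29.8. The chromosome 11 cluster, 1361 bp downstream of the nearest matched start in a run shared by Gm39478 and Septin9, which encodes a cytoskeletal GTP-binding protein, was at 26.6% at 0 divisions and at 10.9% at >3 divisions.

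The limits of the rule cut through gradual change. Just outside 2000 bp, at 2001 to 2250 bp, CpGs were at 55.5% in the >3-division and 61.1% in the control library, next to 52.3% and 57.9% in the last shore step. CpGs outside runs with 11 CpGs within 100 bp, just inside the density limit, were at 18.7% in the >3-division and 20.5% in the control library, and those with 12, just outside it, at 19.1% and 20.5%. Shore CpGs whose lowest coverage was 10 to 14 reads were at 28.8% in the >3-division and 32.7% in the control library, and those with 5 to 9 reads, left out, at 27.8% and 32.9%.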

How the data were processed

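The authors deposited, for each library, a headerless table of CpG positions with 2 read counts per CpG, methylated and unmethylated; their order was settled from the values, since 62.3% of 628254 dense CpGs in control had a first count of 0. The genome build was mm9, per the submitters' processing notes; aligner, caller, duplicate handling and conversion check: not given in the sources used here. Per the labels' protocols, libraries followed MspI digestion and selection of 40 to 220 bp fragments.

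Levels are methylated reads over all reads in percent, averaged with equal weight per CpG. Levels of clusters, promoter windows and single runs pool reads unless stated otherwise. Positions of the deposited counts start at 0, settled because 82 of 358 chromosome 19 RefSeq promoter windows, placed by CpG spacing, sat exactly 1 below GRCm38; printed positions count from 1. Placement used 6 consecutive gaps and at least 8 listed CpGs; no coordinate was converted, and exons, introns and UTRs were not assigned. Fisher's exact tests were adjusted by Benjamini-Hochberg over all CpGs or clusters and tested on simulated data. Neighbouring CpGs often lie on 1 read, and reads had no molecular identifiers, which makes the p-values too small. Overdispersion between the control and 1-division libraries was 1.21 for CpGs and 1.63 for clusters.

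Named clusters follow a fixed rule: at least 50 reads in each library, the 5 largest falls and 5 largest rises of the >3-division library, its 3 largest falls centred within 250 bp of a run, and the 3 largest of each for the other libraries; profiles are the 4 sides with the most shore CpGs in at least 6 of 8 steps; chromosome 18 was left out of named regions. The members, lists and rules were chosen with earlier results of these data known. Alternatives varied coverage, density, run size, weighting, depth, cluster gap and library-wide shift. Python 3.11.15, numpy 2.4.6, pandas 2.3.3, numba 0.67.0, scipy 1.17.1 and matplotlib 3.10.9 were used.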

Additional observations from a re-analysis of the deposited data

How the results depend on the processing

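No paired analysis was possible because each group has 1 library. The mean difference over shore CpGs of the >3-division library from control kept its direction at -2.77 and -2.23 points with a coverage minimum of 5 and 20 reads, -3.10 and -1.47 with dense CpGs from 10 and 15 CpGs, -2.05 with runs from 20 dense CpGs, -2.32 without sides of repeated spacing, -10.5 with pooled reads and -2.87 with weights by control reads. In the same order, its difference from the 0-division library was -3.31, -2.65, -3.41, -2.13, -2.65, -2.83, -10.3 and -3.23 points, with weights here by 0-division reads. The 0-division library differed from control by 0.537 and 0.415 points at 5 and 20 reads, 0.310 and 0.652 with dense CpGs from 10 and 15 CpGs, 0.601 with longer runs, 0.515 without repeated spacings and 0.397 with weights by control reads, and reversed to -0.142 with pooled reads. The 1-division library differed by 0.161 points at 20 reads, 0.170 with dense CpGs from 15 CpGs and 0.159 with weights by control reads, and reversed to -0.530 with pooled reads; the cause of these reversals was not tested.

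The change of the >3-division difference from the first step to the last was -4.42 and -3.58 points at 5 and 20 reads, -3.41 and -4.86 with dense CpGs from 10 and 15 CpGs, -4.85 with longer runs, -5.70 with pooled reads, -3.51 with weights by control reads and -4.94 with equal weight per run side. Within 1 to 4, 5 to 8 and 9 to 11 local CpGs it was -4.57, -2.57 and -1.36 points, and within the 3 level classes -0.684, -2.21 and -0.293 points. Its sign was the same in each of these settings.

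Counts of calls moved more, by construction where depth was cut. At equal depth the >3-division library had 1782 shore CpGs lower than control and 48 higher, and 1887 lower and 42 higher than the 0-division library; its higher clusters were 37 and 34. After division of read counts by the overdispersion its higher CpGs were 64 and 58, and its higher clusters 26 and 26. Against the library-wide odds ratio the counts were 1097 lower and 500 higher CpGs and 327 and 275 clusters against control, and 1176 and 544 CpGs and 347 and 324 clusters against the 0-division library. For the 0-division library against control, equal depth left 3 CpGs lower and 0 higher, and 18 clusters lower and 30 higher; a minimum of 20 reads left 1 CpG higher; dividing by the overdispersion left 0 CpGs higher, 7 clusters lower and 8 higher. For the 1-division library, a minimum of 20 reads, equal depth and the overdispersion each left 0 CpGs higher; equal depth left 9 clusters lower and 7 higher, and the overdispersion 4 lower and 0 higher; a cluster gap of 50 bp gave 27 lower. Named clusters kept their direction in all 97 settings run for them. Where their reads were tested again, the exact test gave a p under 0.05, without adjustment. With equal weight per CpG only the direction was compared. The clusters had been named because they were called in these same reads, so this is no further evidence for them. Setting aside repeated spacings and giving equal weight per CpG in named clusters were added after the data were seen. Near the run shores rest on 64442 CpGs and at 1751 to 2000 bp on 2433, so far steps are the less precise.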
